A study of Mus musculus with 6 samples.

Results

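The genes described are 10 mouse genes for proteins of microfibrils and elastic fibres: the fibrillins Fbn1 and Fbn2, the microfibril-associated proteins Mfap2, Mfap4 and Mfap5, the fibulins Fbln1, Fbln2, Fbln5 and Fbln7, and elastin, Eln. They were taken by symbol: every probe set whose platform annotation gave exactly 1 gene symbol, and that symbol one of the 10, was included. This gave 258 of the 241576 probe sets on the array and 10 of the 20416 genes. The family was put forward with the insulin and control values of these arrays already known, so it was selected on the contrast below, and its changes and p-values are a description and not independent evidence.

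RNA came from myotubes of C2C12, a mouse myoblast line that fuses into multinucleated contractile cells when serum is lowered. All cultures were grown in 10% fetal bovine serum, switched to 2% horse serum to differentiate and used between days 4 and 7 of differentiation, per the labels' protocols. The insulin group had 3 cultures exposed to 100 nM insulin for 48 h, a treatment the labels give as a way to bring on insulin resistance, and the control group had 3 untreated cultures. Medium was renewed every 24 h in both groups, and the 3 arrays of a group are labelled biological replicates of this 1 cell line. From each culture 25 ng of total RNA was amplified before it was labelled, so levels are those of amplified RNA.

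Microfibrils are thin extracellular threads built from fibrillin molecules, with small glycoproteins of the Mfap group bound along them. Elastic fibres form when tropoelastin, the product of Eln, is laid onto a microfibril scaffold with the help of fibulins and is crosslinked by lysyl oxidases. Fibrillins also bind the large latent complexes of TGF-beta, and in muscle this matrix surrounds the fibres and is made by fibroblasts and to some extent by muscle cells.

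Values are the log2 values the authors deposited, and a difference of 1 is a doubling. Each gene was summarised on an array by the median of its probe sets, and it was tested if its mean over the 6 arrays reached 7.05, the 30th percentile of all genes. A gene or probe set is called lower or higher where its limma adjusted p was under 0.05. Array medians lay between 8.79 and 8.82 and correlations between arrays between 0.977 and 0.99. All 19 myotube markers passed the filter and were tested, and their mean lay between 12.11 and 12.17 on the insulin arrays, against 12.29 to 12.53 on the control arrays. Probe sets of different genes bind with different strength, so levels were compared between arrays for 1 gene and never between genes.

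All 10 genes passed the filter. Mfap5 and Fbln7 were lower after insulin, none of the 10 was called higher, and 8 were not called. Over all 14291 tested genes, 6.35% were called lower and 9.56% higher. The insulin arrays all lay below the control arrays for 4 of the genes (Fbn1, Mfap2, Mfap5 and Fbln7), as they did for 15.7% of tested genes, and all above them for 1, Fbln1, as for 20.0% of tested genes. The median change of the 10 genes was -0.15 on the log2 scale, beside -0.0028 for all tested genes, and 8 of the 10 changes were below 0, beside 50.6% of all tested genes. Since the same contrast was used to choose the family, nothing is read from these counts.

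**Figure D1:**
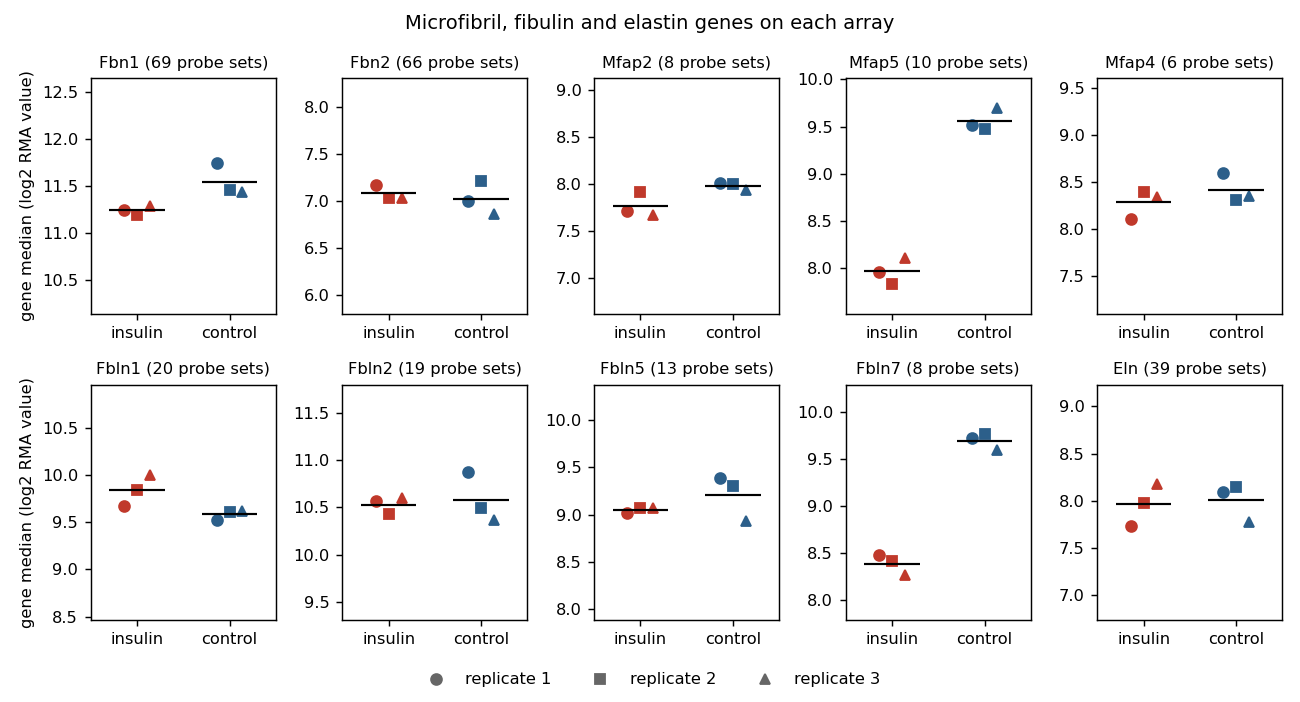
Median log2 RMA value of each gene's probe sets on the 3 insulin (red) and 3 control (blue) arrays; every panel spans the same height on the y axis, bars are group means and symbols are replicate numbers. Mfap5 and Fbln7 are separated by more than 1 log2 unit between the groups, while in Fbn2, Mfap4, Fbln2, Fbln5 and Eln the groups overlap.

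The fibrillins form the backbone of the microfibril. Fbn1 encodes fibrillin 1, whose mutation causes Marfan syndrome in humans, and was read by 69 probe sets. Its gene value was 11.24, 11.19 and 11.29 on the insulin arrays, against 11.74, 11.46 and 11.43 on the control arrays. The groups did not overlap and were 0.15 apart at their nearest arrays, with control 1 above the other controls. The change of -0.30 ± 0.093 (SE, n = 3 each) did not pass, with a limma adjusted p of 0.0631 and a 95% interval from -0.52 to -0.089.

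The probe sets of Fbn1 lay mostly on the same side. In 67 of the 69 (97.1%) the insulin mean was below the control mean, beside 51.2% of all probe sets on the array, and in 47 all insulin arrays lay below all control arrays. Over all 241576 probe sets, the insulin arrays lay wholly below the control arrays in 10.2% and wholly above them in 13.4%. Of the 65 that were tested singly, 4 were called lower. Over all 169103 tested probe sets, 1.44% were called lower and 3.43% higher. The 4 called probe sets changed by between -0.86 and -0.48, and 3 of them follow one another in the order of platform IDs (numbers 53, 54 and 55). Probe sets of 1 gene share the same RNA and the same arrays, and are not replicates.

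Fbn2 encodes fibrillin 2, which is made mainly during development. It had 7.18, 7.03 and 7.04 on the insulin arrays, against 7.01, 7.21 and 6.87 on the control arrays. The groups overlapped and the change was 0.054 ± 0.097 (SE), with a limma adjusted p of 0.760 and a 95% interval from -0.17 to 0.28. Its mean of 7.05 lay just above the filter, and 40 of its 66 probe sets lay under the filter for probe sets, which was 7.36. None of the 26 tested probe sets was called, and changes were below 0 in 36 and above 0 in 30 of the 66. The 33 brighter probe sets had a median change of -0.090 and the 33 dimmer ones 0.101. The change of Fbn1 minus that of Fbn2 was -0.36 on the log2 scale.

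Mfap5 encodes the small microfibril glycoprotein MAGP2, which binds fibrillin and has been shown to interact with Jagged and Notch proteins. Its gene value was 7.96, 7.83 and 8.10 on the insulin arrays, against 9.52, 9.47 and 9.69 on the control arrays. The groups were 1.37 apart at their nearest arrays. The group means were 7.96 ± 0.136 and 9.56 ± 0.117 (insulin and control, SD, n = 3 each). Mfap5 was 3.03-fold lower after insulin, a change of -1.60 ± 0.093 on the log2 scale (SE), with a 95% interval from -1.81 to -1.39 and a limma adjusted p of 1.08e-04. In RNA from whole cultures, fewer cells that make a transcript and less of it per cell cannot be told apart.

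All 10 probe sets of Mfap5 were below 0. In all 10 the insulin arrays lay wholly below the control arrays, beside 10.2% of all probe sets. Of the 9 tested, 8 were called lower, beside 1.44% of all tested probe sets, and 7 of the 10 were at least 2-fold lower. The changes ran from -2.17 to -0.54. Probe set 4 in the order of platform IDs, with the change of -2.17, had 7.22, 7.20 and 7.74 on the insulin arrays, against 9.49, 9.41 and 9.79 on the control arrays. Probe set 1, the brightest, had 9.99, 10.30 and 10.31 on the insulin arrays, against 11.06, 10.59 and 10.56 on the control arrays. Its change of -0.54 ± 0.165 (SE) was the smallest of the 10 and was not called, with a limma adjusted p of 0.120. The fold of the gene median is 1 summary of this range. The dimmest, probe set 10, was under the filter and changed by -0.89.

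Mfap2 encodes MAGP1, the other MAGP, which binds fibrillin and active TGF-beta. It had 7.71, 7.91 and 7.67 on the insulin arrays, against 8.005, 7.99 and 7.93 on the control arrays. The groups were separated by 0.017, and the change of -0.21 ± 0.080 (SE) did not pass, with a limma adjusted p of 0.119. The 95% interval ran from -0.40 to -0.027. Of its 8 probe sets 7 were below 0, 4 were tested and none was called. Its brightest probe set had 10.10, 9.96 and 10.09 on the insulin arrays, against 10.43, 10.13 and 10.16 on the control arrays, a change of -0.19 that was not called.

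Mfap4 encodes a fibrinogen-related glycoprotein that binds tropoelastin and is not a MAGP. It had 8.11, 8.39 and 8.34 on the insulin arrays, against 8.59, 8.31 and 8.35 on the control arrays. The groups overlapped, with a change of -0.14 ± 0.105 (SE), a limma adjusted p of 0.442 and a 95% interval from -0.38 to 0.11. Its 6 probe sets changed by between -0.18 and 0.031 and none of the 4 tested was called. The change of Mfap5 minus that of Mfap2 was -1.39, and minus that of Mfap4 it was -1.46, differences that were part of what chose the genes and were not tested.

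**Figure D2:**
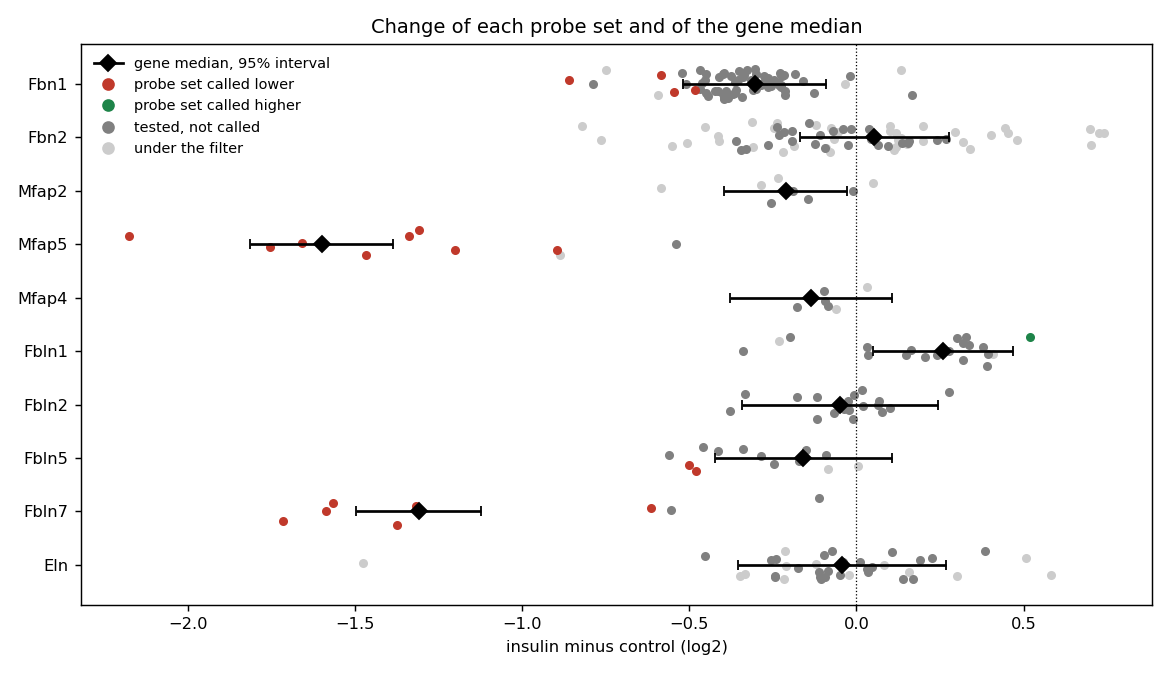
Insulin minus control (log2) of each of the 258 probe sets, by gene, with the change of the gene median and its 95% interval (diamonds and bars); red and green probe sets were called lower and higher, dark grey ones were tested and not called, and light grey ones were under the filter. All probe sets of Mfap5 and Fbln7 and nearly all of Fbn1 and Fbln5 lie left of 0, and those of Fbn2 and Eln spread to both sides. The median probe set changes of Fbn1 and Fbln5 lie nearer to 0 than those of Mfap5 and Fbln7, though the ranges overlap.

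Fbln7 encodes fibulin 7, a secreted fibulin to which cells adhere and which is known from developing teeth. Its gene value was 8.48, 8.41 and 8.27 on the insulin arrays, against 9.72, 9.77 and 9.60 on the control arrays. The groups were 1.12 apart at their nearest arrays. The means were 8.38 ± 0.106 and 9.69 ± 0.088 (insulin and control, SD, n = 3 each), which makes Fbln7 2.48-fold lower after insulin. The change was -1.31 ± 0.081 on the log2 scale (SE), with a 95% interval from -1.495 to -1.12 and a limma adjusted p of 1.10e-04.

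All 8 probe sets of Fbln7 were tested and below 0. In 7 the insulin arrays lay wholly below the control arrays, beside 10.2% of all probe sets. Lower calls were made in 6, beside 1.44% of all tested probe sets, and 5 were at least 2-fold lower. The brightest, probe set 7, was also the one with the largest change of the 8. It had 9.65, 9.40 and 9.47 on the insulin arrays, against 11.31, 11.25 and 11.11 on the control arrays, a change of -1.72 with a limma adjusted p of 0.00174. Probe set 1 had 8.55, 8.42 and 8.47 on the insulin arrays, against 8.83, 8.75 and 8.20 on the control arrays. Its change of -0.11 was not called, and its groups overlapped through control 3. In Mfap5 the brightest probe set showed the smallest change, and in Fbln7 it showed the largest.

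**Figure D3:**
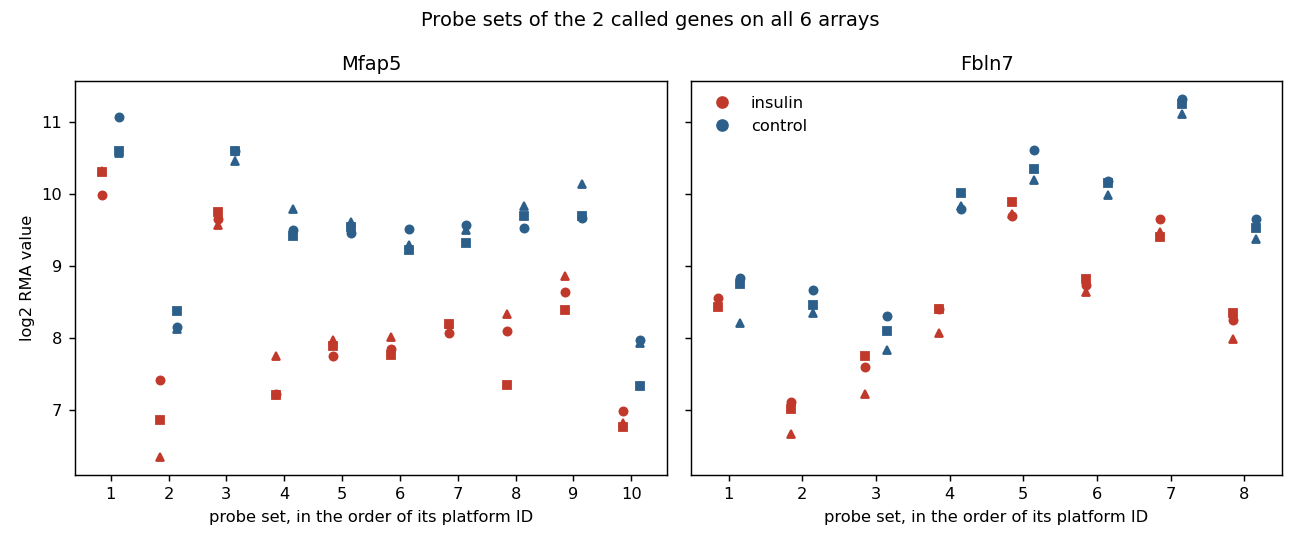
Log2 RMA value of each probe set of Mfap5 and Fbln7, in the order of platform IDs, on the 3 insulin (red, left of each pair) and 3 control (blue, right) arrays; circles, squares and triangles are replicates 1, 2 and 3. The groups are apart in all 10 probe sets of Mfap5 and in 7 of the 8 of Fbln7, and the distance between them varies from probe set to probe set.

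RefSeq promoter windows of assembly GRCm38.p6 were at hand for 6 of the 10 genes: Fbln1, Fbln2, Fbln5, Fbln7, Fbn1 and Mfap2. The 250 bases before the annotated start of Fbln7, called lower, are shown beside those of Fbln2, whose groups overlapped, so that the upstream sequence of a changed and an uncalled fibulin can be compared. The Fbln7 window is chr2:128863682-128863931 and the Fbln2 window chr6:91212514-91212763, both on the plus strand and read 5′ to 3′. Capitals mark a match of CATTCC, the core sequence bound by TEAD factors.
Fbln7: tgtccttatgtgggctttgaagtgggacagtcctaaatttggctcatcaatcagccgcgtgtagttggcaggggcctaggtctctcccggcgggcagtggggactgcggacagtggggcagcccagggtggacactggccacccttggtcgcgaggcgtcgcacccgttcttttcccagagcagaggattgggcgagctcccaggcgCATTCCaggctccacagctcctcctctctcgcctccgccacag
Fbln2: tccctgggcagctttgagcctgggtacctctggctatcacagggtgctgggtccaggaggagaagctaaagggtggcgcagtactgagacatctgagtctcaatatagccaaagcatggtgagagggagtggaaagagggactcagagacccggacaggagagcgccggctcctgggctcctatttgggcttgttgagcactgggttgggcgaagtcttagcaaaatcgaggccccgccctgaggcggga

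The Fbln7 window had 63.2% G and C and 14 CG pairs, and the Fbln2 window 58.8% and 8, beside a median of 52.4% G and C over all 32851 windows. Of 7 motifs searched on both strands, Fbln7 held only CATTCC, once, with its first base 43 before the start. This motif occurs in 12.6% of all windows of this length. The Fbln2 window held the E-box CANNTG once (66.2% of all windows) and the GC box GGGCGG once (32.7% of all windows). Neither window held the SMAD motif CAGAC (42.2% of all windows), the AP-1 motif TGANTCA (6.7%), the forkhead motif GTAAACA (3.2%) or the TATA box TATAAA (12.4%). Among the other windows, 1 of those of Mfap2 held CATTCC. The matches are a description of these letters, and the pair of windows was picked after the values were seen.

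Fbln1, Fbln2 and Fbln5, the other fibulins of the family, were not called. Fbln1, which binds fibronectin and is found in elastic fibres, had 9.68, 9.85 and 10.01 on the insulin arrays, against 9.52, 9.61 and 9.62 on the control arrays. The insulin arrays all lay above the control arrays, by 0.056 at the nearest pair. The change of 0.26 ± 0.091 (SE) did not pass, with a limma adjusted p of 0.0955 and a 95% interval from 0.049 to 0.47. Of the 20 probe sets 17 were above 0. In 10 the insulin arrays lay wholly above the control arrays, beside 13.4% of all probe sets. Of the 18 tested, 1 was called higher, beside 3.43% of all tested probe sets. That probe set, number 5 in ID order, had 9.39, 9.37 and 9.58 on the insulin arrays, against 8.99, 8.89 and 8.90 on the control arrays, a change of 0.52 with a limma adjusted p of 0.0312. The 3 probe sets below 0 were numbers 1, 2 and 20, the ends of the gene's ID order, with changes of -0.23, -0.20 and -0.34, of which none was called.

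Fbln2, a large fibulin of basement membranes and microfibrils, had 10.57, 10.43 and 10.60 on the insulin arrays, against 10.87, 10.50 and 10.37 on the control arrays. The control arrays spanned the insulin arrays. The change was -0.048 ± 0.127 (SE), with a limma adjusted p of 0.839 and a 95% interval from -0.34 to 0.24. All 19 probe sets were tested and none was called, with 12 below and 7 above 0 and a range from -0.38 to 0.28.

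Fbln5 encodes a fibulin that binds tropoelastin and the crosslinking enzyme LOXL1, and mice without it have disorganised elastic fibres. Its gene value was 9.02, 9.07 and 9.07 on the insulin arrays, against 9.39, 9.30 and 8.94 on the control arrays. Control 3 lay below all insulin arrays, and the change of -0.16 ± 0.115 (SE) did not pass, with a limma adjusted p of 0.409 and a 95% interval from -0.42 to 0.11. Of the single probe sets, 12 of 13 were below 0. In 8 the insulin arrays all lay below the control arrays, beside 10.2% of all probe sets. Of the 11 tested, 2 were called lower, beside 1.44% of all tested probe sets. The median of the 13 changes was -0.29, beside -0.16 for the change of the medians, since the middle probe set was not the same on every array.

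The changes of the Fbln5 probe sets went with their brightness. The 7 brighter probe sets had a median change of -0.46 and the 6 dimmer ones -0.13. The correlation of mean level and change over the 13 probe sets was r = -0.77 (rho = -0.84), given as a description, since the probe sets share arrays and target. The brightest, number 2 in ID order, had 9.64, 9.53 and 9.56 on the insulin arrays, against 10.23, 9.98 and 10.02 on the control arrays. Its change of -0.50 was called, with a limma adjusted p of 0.0385. With the mean of the probe sets in place of the median, the change of the gene was -0.29 with a limma adjusted p of 0.00674, and with the brighter probe sets alone it was -0.48 with 0.00514. The change also depended on single control arrays: it was -0.067 without control 1 (limma adjusted p = 0.739), -0.11 without control 2 (adjusted p = 0.663) and -0.30 without control 3 (adjusted p = 0.0307). Under 11 of 17 alternatives Fbln5 was not called. The same correlation was 0.38 over the 10 probe sets of Mfap5, -0.24 over the 8 of Fbln7 and 0.024 over the 69 of Fbn1.

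**Figure D4:**
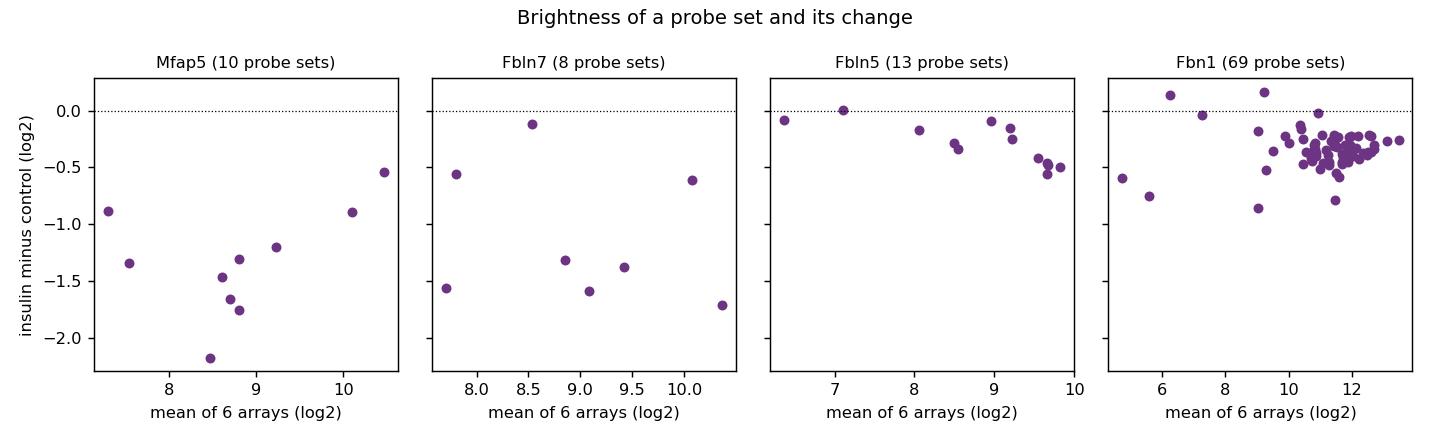
Insulin minus control (log2) of each probe set against its mean over the 6 arrays (log2) in Mfap5, Fbln7, Fbln5 and Fbn1, 1 point per probe set. In Fbln5 the brighter probe sets lie lower, while in Fbn1 the points form a band near the median of -0.34 and in Mfap5 the brightest probe set lies nearest to 0.

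Eln, the gene of tropoelastin, had 7.73, 7.98 and 8.18 on the insulin arrays, against 8.09, 8.15 and 7.78 on the control arrays. The groups overlapped over most of their range. The change was -0.044 ± 0.135 (SE), with a limma adjusted p of 0.863 and a 95% interval from -0.36 to 0.27, so that a change of up to about that size either way is not excluded by these arrays. Of its 39 probe sets 25 were tested and none was called, with 24 below and 15 above 0. Its brightest probe set had 11.96, 12.18 and 12.32 on the insulin arrays, against 12.63, 12.27 and 11.85 on the control arrays, and changed by -0.098. The change of -1.47 at probe set 3 came from dim values of 4.996, 4.05 and 5.12 on the insulin arrays, against 5.52, 5.76 and 7.31 on the control arrays, and was under the filter.

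Over the 258 probe sets of the family, 189 were tested, 20 were called lower, 1 was called higher and 168 were not called. Beside this, 1.44% of all tested probe sets were called lower and 3.43% higher. The insulin arrays lay wholly below the control arrays in 79 of the 258 and wholly above them in 14, beside 10.2% and 13.4% of all probe sets. The family was chosen on this contrast, so nothing is read from these counts. Of the 20 called lower, 8 were in Mfap5, 6 in Fbln7, 4 in Fbn1 and 2 in Fbln5. Among the control arrays, control 1 was the highest in 5 of the 10 genes and control 3 had a median deviation of -0.10 from its group's means. Among the insulin arrays, insulin 3 was the highest in 5. The sources used here give no date of scanning or hybridization, so batches were not examined.

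Among tested genes outside the family, those whose pattern over the 6 arrays was most like that of Mfap5 and Fbln7 were found by the root mean square distance between values centred on each gene's own mean. For Mfap5 they were Cxcr4, the receptor of CXCL12, at 0.189, Sepp1 (Selenop), a selenium carrier, at 0.237, the HLH inhibitor Id3 at 0.243, Gprin3 at 0.264 and Cp, ceruloplasmin, at 0.273. For Fbln7 they were Cxcr4 at 0.111, Cp at 0.146, Sepp1 at 0.149, Ctgf (Ccn2), a matricellular protein, at 0.152 and the GDNF receptor gene Gfra1 at 0.152. The distance between Mfap5 and Fbln7 was 0.227, so that Fbln7 was nearer to Mfap5 than all of its listed genes but Cxcr4. The listed genes changed by between -1.26 and -1.02, and only 15 of all tested genes were called and at least 2-fold lower. These distances thus follow largely from the size of the change that chose the family, and are a description only. Cxcr4, near both, averaged 10.41 ± 0.031 on the insulin arrays and 11.67 ± 0.042 on the control arrays (SD, n = 3 each).

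Of 123 other genes of elastic fibre biology on the array, in 7 lists, 108 were tested, 31 were called lower, 5 higher and 72 not. Shares over all 14291 tested genes were 6.35% lower and 9.56% higher, for comparison with these counts and those of each list below. The lists were chosen with earlier results of these data known, so nothing is read from their counts. Among 18 tested genes of elastic fibre assembly and crosslinking, 5 were lower and 1 higher, with a median change of -0.040. Loxl1, the lysyl oxidase tied to Fbln5, had 10.75, 10.80 and 10.89 on the insulin arrays, against 11.29, 11.24 and 11.21 on the control arrays, and fell by 0.44 (limma adjusted p = 0.00507). Lox, which crosslinks collagen and elastin, fell by 0.36 (adjusted p = 0.0147), and Efemp1, the gene of fibulin 3, fell by 0.43 (adjusted p = 0.0113). Loxl4, another lysyl oxidase, rose by 0.48 (adjusted p = 0.0249).

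Microfibrils hold latent TGF-beta, and 16 genes of latent TGF-beta binding and of TGF-beta and BMP signals were tested. Of these 6 were lower and none higher, with a median change of -0.22. Bmp4 had 7.96, 7.95 and 7.88 on the insulin arrays, against 8.67, 8.58 and 8.46 on the control arrays, and fell by 0.64 (limma adjusted p = 0.00191). Gdf5, a ligand of the BMP family, fell by 0.59 (adjusted p = 0.00162), Tgfb3 by 0.38 (adjusted p = 0.0149) and the receptor gene Tgfbr2 by 0.31 (adjusted p = 0.0167). The latent TGF-beta binding proteins Ltbp1, Ltbp2, Ltbp3 and Ltbp4 had changes of -0.072, -0.15, -0.25 and -0.20, and none was called.

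Of 15 tested genes of the ADAMTS family, secreted proteins of which several bind fibrillin, 7 were lower and none higher, with a median change of -0.31. The proteoglycan-cleaving enzymes Adamts4 and Adamts5 fell by 0.58 (limma adjusted p = 0.00124) and 0.53 (adjusted p = 0.00325). Adamtsl1 fell by 0.47 (adjusted p = 0.00687) and Adamtsl5, which binds fibrillin, by 0.39 (adjusted p = 0.0130). Among 15 tested proteases that cleave elastin or fibulins and their inhibitors, 1 was lower and 1 higher, with a median change of -0.020. Mmp2, a gelatinase, fell by 0.47 (adjusted p = 0.00316), and the inhibitor Timp3 rose by 0.27 (adjusted p = 0.0420). Timp2 and the protease gene Htra1 had changes of -0.29 (adjusted p = 0.0617) and 0.18 (adjusted p = 0.0821).

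The list of cell receptors of microfibrils, which also held the Notch ligand gene Jag1, had 14 tested genes. Of these 3 were lower and 1, Jag1, was higher, with a median change of -0.11. The integrin subunit genes Itgb5 and Itgb6 fell by 0.71 (limma adjusted p = 0.00261) and 0.52 (adjusted p = 0.00223), and the syndecan Sdc2 by 0.39 (adjusted p = 0.00645). Jag1, the gene of a Notch ligand that MAGP2 can bind, had 9.67, 9.71 and 9.51 on the insulin arrays, against 9.35, 8.88 and 9.15 on the control arrays, and rose by 0.50 (adjusted p = 0.0269). Of 16 tested matrix partners of microfibrils and fibulins, 4 were lower and 2 higher, with a median change of -0.13. The proteoglycans Dcn and Bgn fell by 0.57 (adjusted p = 0.00187) and 0.36 (adjusted p = 0.00993), the basement membrane gene Nid2 by 0.51 (adjusted p = 0.00322) and Nov (Ccn3) by 0.47 (adjusted p = 0.00590). The 2 higher were Vcan, which rose by 0.36 (limma adjusted p = 0.0159), and Nid1, by 0.27 (limma adjusted p = 0.0231).

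Of 15 tested genes known to respond to TGF-beta, 5 were lower and none higher, with a median change of -0.17. Postn, the gene of periostin, had 8.55, 8.26 and 8.11 on the insulin arrays, against 9.89, 9.29 and 9.45 on the control arrays, and fell by 1.24 (limma adjusted p = 0.00310). Ctgf (Ccn2) fell by 1.02 (adjusted p = 2.01e-04), Tagln, the gene of transgelin, by 0.93 (adjusted p = 5.30e-04) and Cyr61 (Ccn1) by 0.32 (adjusted p = 0.0251). The collagen genes Col1a1, Col1a2 and Col3a1 had changes of -0.19, 0.057 and -0.15, and none was called.

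**Figure D5:**
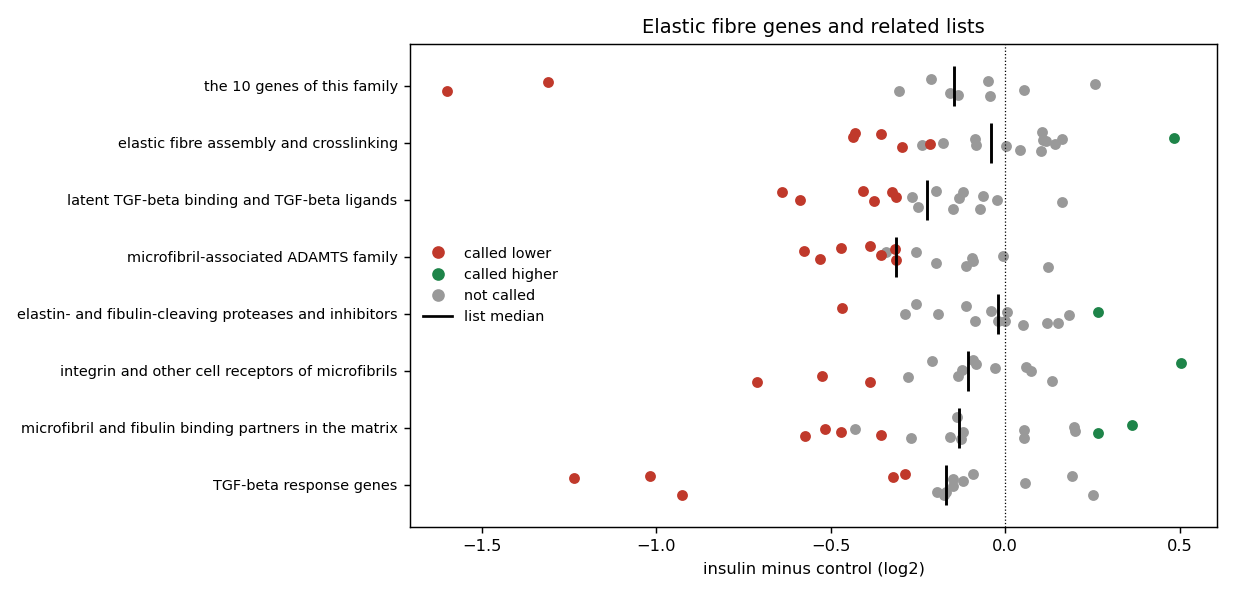
Insulin minus control (log2) of the tested genes of the family (top row) and of 7 lists of related genes, 1 point per gene, with genes called lower in red, called higher in green and not called in grey; black bars are medians. List medians lie between -0.31 and -0.020, and Mfap5 and Fbln7 lie further left than any gene of the lists.

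Markers of other cells that make microfibrils were read in the same fit, in which 6.35% of all tested genes were called lower and 9.56% higher. Of 10 tested fibroblast markers, 2 were lower (Pdgfrb, with a change of -0.40, and Dcn) and none higher, and the mean of the list lay between 11.22 and 11.31 on the insulin arrays, against 11.35 to 11.46 on the control arrays. The other 3 of the 13 fibroblast markers on the array, Lum, Fap and Tcf21, were under the filter. Of 8 tested smooth muscle markers, 3 were lower (Tagln, Cnn1 and Actg2) and none higher, and the mean of the list lay between 9.63 and 9.65 on the insulin arrays, against 9.80 to 10.00 on the control arrays. Of the 19 myotube markers, 6 were lower and none higher, with a median change of -0.24. Of 14 tested myoblast markers 4 were lower and 4 higher, with a median of -0.044. The 4 lower ran from -1.26 (Cxcr4) to -0.44 (Heyl) and the 4 higher from 0.29 (Myf5) to 1.27 (Ccnd1). Cxcr4 and Id3, which were listed above as near Mfap5, were both among the 4 lower. Of 7 adipocyte, 7 endothelial and 7 macrophage markers on the array, 4, 3 and 2 passed the filter and were tested, and none was called. Adipoq, Cdh5, Ptprc and Lyz2, which define those cells, were among those under the filter. Signal over background was not judged, so presence or absence of these cells is not read from the filter. List medians were -0.10 for fibroblast, -0.24 for smooth muscle and -0.24 for myotube markers. They were also below 0 for adipocyte (-0.095), myoblast (-0.044) and endothelial (-0.022) markers, and above 0 for macrophage markers (0.093). The part of these lists in the changes of Mfap5 and Fbln7, which were below 0 as well, was not tested.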

How the data were processed

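RNA of 6 cultures was read on exon-level arrays. The authors deposited RMA values of each probe set on each array, per the submitters' processing notes, where the version is not stated. The deposited values were taken as log2, inferred from their range of 3.15 to 14.6. Without scanner files or detection calls, signal over background was not judged. Precision is limited by the number of arrays. RMA equalizes arrays, so changes are relative to other transcripts. Symbols came from GEO's platform annotation: 212097 probe sets had 1 symbol, 4475 several and 25004 none. The contrast of insulin minus control was estimated by limma 3.58.1 in R 4.3.3 (lmFit and eBayes, two-sided, no covariates) on gene medians and on probe sets, each at or above its 30th percentile, with Benjamini-Hochberg adjustment over all tested features. The fit was tested on simulated data. Figures used matplotlib 3.10.9.

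All 10 genes are named. Of each list of related genes the 4 with the smallest unadjusted p are named, and for Mfap5 and Fbln7 the 5 nearest tested genes by distance, the family itself left out. Other genes were named with their values known. The members, lists and tests were chosen with earlier results of these data known. Same-numbered insulin and control arrays deviated together with correlations of 0.025, 0.19 and -0.00036, and the numbers were not taken as pairs. Alternatives were repeated quantile normalization, median centring, no filter or the 50th percentile, array quality weights, a robust prior with an intensity trend, the replicate number as a block, other summaries of probe sets and leaving out each array. Added after seeing the data were tests on probe sets at or above the filter level only and on named probe sets only.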

Additional observations from a re-analysis of the deposited data

How the results depend on the processing

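Fbln7 was called lower under all 17 alternatives, with changes from -1.72 to -1.10, and Mfap5 under 16 of 17. The exception was its brightest probe set alone, at -0.54 with a limma adjusted p of 0.0721. The count of the 10 genes called lower, 2 in the fit above, was 5 with array quality weights and 5 with the mean of probe sets. It was 4 with the brighter probe sets of each gene and 4 with probe sets at or above the filter level only. With repeated quantile normalization it was 3, as it was with the intensity trend and robust prior, and at the 50th percentile filter, where 6 of the 10 were tested. The count called higher, 0 above, was 1 with array quality weights, 1 with the mean and 1 with probe sets at or above the filter level only. Leaving out single arrays gave between 2 and 4 called lower and 0 called higher throughout. Fbn1 passed under 8 of 17 alternatives (adjusted p from 0.0103 to 0.181), Fbln5 under 6 of 17 (0.00514 to 0.739), Fbln1 under 3 of 17 (0.0313 to 0.263) and Mfap2 under 2 of 16 (0.0278 to 0.314). Fbn1 changed by -0.36 without control 3 (adjusted p = 0.0456) and by -0.20 without control 1 (adjusted p = 0.0848). Fbn2, Mfap4, Fbln2 and Eln passed under none in which they were tested, and the sign of the change of Fbn2, Fbln2 and Eln was not the same under all alternatives.

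Of the family's probe sets, 20 were called lower above, against 12 with no filter, 34 with an intensity trend and robust prior and 70 with array quality weights, and 9 to 19 when single arrays were left out (9 to 12 without insulin 1, insulin 2, insulin 3, control 1 or control 2). The 1 called higher became 0 with no filter, 3 at the 50th percentile, 2 with the trend and 7 with array quality weights, and 0 to 1 when single arrays were left out. With the replicate block 11 probe sets were called lower and 0 higher, and of the 10 genes 2 were called lower and 0 higher. In their deviations from the group means of the tested genes, insulin 1, 2 and 3 correlated best with controls 3, 2 and 1. Over all genes, 2274 were called and 908 were lower, against 5007 and 2399 with array quality weights, 3436 and 1482 with the mean of probe sets, and 1046 to 2446 and 383 to 964 when single arrays were left out. The lowest of these were without insulin 2, and the counts also fell by over 1.5 times without insulin 1 (1267 and 462), insulin 3 (1114 and 408) and control 2 (1237 and 428). The cause of these differences was not tested.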

Other observations

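In 2 of the 69 probe sets of Fbn1, both arrays numbered 2 stood apart from the others, a feature noticed after the values were seen. Probe set 9 in the order of platform IDs had 11.43, 9.90 and 11.25 on the insulin arrays, against 11.93, 10.28 and 11.76 on the control arrays. Probe set 44 had 11.44, 10.41 and 11.41 on the insulin arrays, against 12.31, 11.05 and 12.25 on the control arrays. Within each number, the insulin array was below the control array in both probe sets. Their standard errors, 0.554 and 0.417, exceed that of the gene median of Fbn1, 0.093, and neither was called.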
